A study of Homo sapiens with 24 samples.

Results

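MB468res-R8 (R8) is a line derived from MDA-MB-468 (MB468), a triple-negative human breast cancer line, and it proliferates when methionine in the medium is replaced by its precursor homocysteine, a condition in which MB468 cells stop dividing. The response of R8 at 0.5 h after this replacement is described here, from the 3 R8 libraries collected at 0.5 h and the 3 collected at 0 h, 6 of the 24 libraries of the series. Cells at 0 h were in growth medium with 100 µM methionine (Met+), and cells at 0.5 h had been moved to methionine-free medium with 370 µM homocysteine (Met-Hcy+). Both media contained dialyzed serum, vitamin B12, glutamine and cysteine. The labels describe no cells moved to fresh Met+ medium for 0.5 h, so the loss of methionine, the addition of homocysteine and the medium change itself cannot be told apart, and R8 is 1 derived line. The other libraries compared are the R8 libraries at 2 h and 12 h and the MB468 libraries at 0 h and 0.5 h, with 3 in each group. All 24 libraries, with MB468 at 2 h and 12 h among them, entered the fit that estimated the spread of each gene. Nothing in the labels says that the 3 libraries of a group came from separate cultures. The p-values therefore measure only the spread between libraries within groups, estimated over the 24 libraries.

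Within minutes of a change of medium, serum factors or stress, cells transcribe immediate early genes from factors that are already in place, without new protein synthesis. These genes encode transcription factors of the FOS, JUN, EGR, NR4A and KLF families, phosphatases that turn MAP kinases off and proteins that speed the decay of short-lived mRNAs, and most of their transcripts are lost again within an hour or so. Methionine supplies S-adenosylmethionine, the methyl donor of the cell, and cells can make methionine from homocysteine with methionine synthase. Amino acid shortage acts through the factor ATF4, whose targets include transporters, synthetases and the stress genes CHAC1, SESN2 and DDIT3.

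The 6 libraries held between 17458102 and 29150215 counts in genes and spike-ins together, and spike-in RNA took 0.214% to 0.288% of the counts. Levels are in CPM, counts scaled to the library size. Epithelial markers summed to between 6162 and 6756 CPM and basal breast markers to between 4997 and 5946 CPM. The 6 immune markers summed to between 50.6 and 57.1 CPM, nearly all of it CD14 (45.8 to 51.4 CPM), with CD68 at 3.94 to 6.08 CPM and PTPRC and CD3E at or below 0.104 CPM. The groups did not lie in order of time. Over the 14739 genes tested, the SD of the log2 difference between R8 group means was 0.335 for 0 h and 0.5 h and 0.350 for 0.5 h and 2 h, but 0.156 for 0 h and 2 h. The 0.5 h libraries therefore stood apart from those at both 0 h and 2 h. The 12 h group lay farthest from the others, at 0.477 from 0 h, 0.490 from 0.5 h and 0.508 from 2 h. The study describes RNA sequencing at 0, 2 and 12 h, while the labels also give 0.5 h. Whether time labels were exchanged cannot be told from these files, so every 0.5 h value is that of the libraries labelled 0.5 h.

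A total of 4960 of the 14739 genes were called at an adjusted p below 0.05 (edgeR quasi-likelihood test, Benjamini-Hochberg adjustment), which is 33.7% of the genes tested. Of these, 2566 were higher at 0.5 h (17.4%) and 2394 were lower (16.2%). These 2 shares are the background for every count of list members called below. With library sizes set by the spike-in totals instead, 2022 were called, 1193 higher and 829 lower, and 33 of the 74 counts of list members called higher or lower fell by more than 1.5 times. Most of the changes were small, with a median absolute log2 fold change of 0.346 among the called genes. A change of at least 2-fold was found for 528 genes (3.58%), of which 178 were higher (1.21%) and 350 were lower (2.37%). The excess of decreases was smaller among the 12262 genes with at least 10 counts in every library, with 122 higher and 168 lower. Every 0.5 h library lay above every 0 h library for 23.0% of the genes tested, and below for 22.0%.

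**Figure D1:**
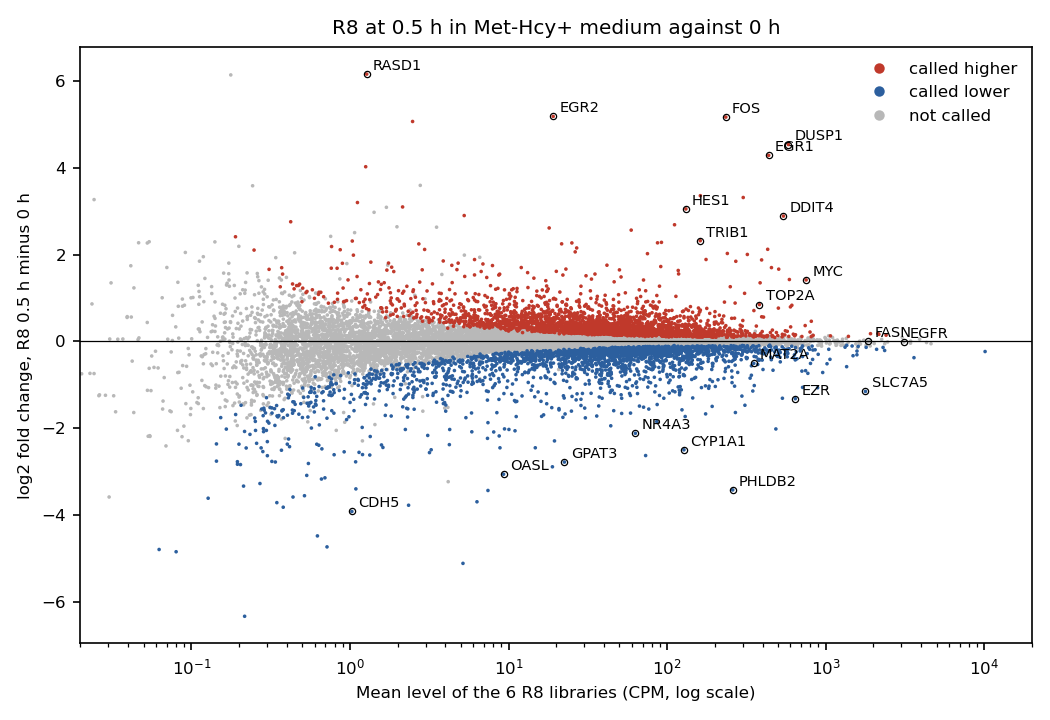
Log2 fold change of R8 at 0.5 h against 0 h (vertical axis) against the mean level of the 6 libraries in CPM (horizontal axis, log scale), with 1 point for each of the 14739 genes and circles around named genes. The 2566 genes called higher are red, the 2394 called lower are blue, and FOS and EGR2 lie at 5.16 and 5.18.

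FOS, the partner of JUN in the AP-1 factor, was at 12.9, 13.2 and 11.8 CPM at 0 h and at 425, 479 and 466 CPM at 0.5 h. Its log2 fold change was 5.16 with an SE of 0.09 (adjusted p = 3.53e-23, edgeR), and the 2 groups were far apart. FOSB rose from between 39.6 and 62.9 CPM to between 481 and 639 CPM, with the highest value in replicate 1. JUNB, ATF3 and JUN also rose, with log2 fold changes of 1.85, 2.03 and 1.26. Other members of the same family moved the other way. FOSL1 was at 85.4, 97.9 and 64.6 CPM at 0 h and at 39.3, 33.0 and 32.1 CPM at 0.5 h, a fall of the group mean from 82.6 to 34.8 CPM (adjusted p = 7.92e-07, edgeR). FOSL2 and MAFF fell by 0.83 and 0.88 on the log2 scale. In all, 5 of the 10 FOS and JUN family genes were called higher and 3 lower, and JUND and BATF3 were not called, with log2 fold changes of -0.02 and -0.06.

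The EGR zinc finger factors and NR4A receptors had a median log2 fold change of 2.268, against -0.001 over all genes tested. EGR2 was at 1.01, 0.834 and 1.26 CPM at 0 h and at 39.4, 32.9 and 39.5 CPM at 0.5 h, a log2 fold change of 5.18 with an SE of 0.15. EGR1 was at 38.0, 46.0 and 44.8 CPM at 0 h and at 773, 838 and 883 CPM at 0.5 h, a log2 fold change of 4.28 with an SE of 0.11. Every 0.5 h value of both genes lay above every 0 h value. EGR3 rose by 2.27 and EGR4 by 0.93 on the log2 scale. The NR4A orphan nuclear receptors split. NR4A2 and NR4A1 rose by 3.36 and 1.35, whereas NR4A3 was at 128, 116 and 66.0 CPM at 0 h and at 41.1, 13.6 and 14.3 CPM at 0.5 h (log2 fold change -2.11, SE 0.36, adjusted p = 0.000172, edgeR). The NR4A3 libraries of each group were spread widely, although the groups did not overlap. Of the 7 genes of these families, 6 were called higher and 1 lower.

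The stretch of 250 bases before the start of EGR1 is shown because it holds 2 CArG boxes, the element bound by serum response factor, which are in capitals. The boxes begin 105 and 83 bases before the start. A CArG box was found on either strand in 1.29% of all 35116 RefSeq promoters (250 bases before to 50 after the start). Among the promoters of tested genes the share was 1.05%. The stretch is chr5:138465229-138465478 (GRCh38.p14, + strand).
EGR1: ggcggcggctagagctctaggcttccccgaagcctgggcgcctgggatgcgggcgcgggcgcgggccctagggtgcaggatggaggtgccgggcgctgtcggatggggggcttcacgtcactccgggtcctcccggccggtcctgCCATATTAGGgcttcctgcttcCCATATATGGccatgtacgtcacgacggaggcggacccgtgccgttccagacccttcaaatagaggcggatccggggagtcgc

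Genes that end signalling or shorten mRNA life were also among the called genes. DUSP1, a phosphatase of p38, JNK and ERK, was at 47.3, 45.9 and 51.8 CPM at 0 h and at 1198, 1092 and 1057 CPM at 0.5 h, a log2 fold change of 4.53 with an SE of 0.07. DUSP5, a nuclear ERK phosphatase, rose from between 30.0 and 32.6 CPM to between 148 and 161 CPM. Of the 19 DUSP and Sprouty genes, 10 were called higher (52.6%) and 4 lower (21.1%), against 17.4% and 16.2% over all genes tested. The lower ones included PHLDA1 (log2 fold change -1.14) and DUSP16 (-1.12). TRIB1, a pseudokinase, had the smallest p of all genes, with 55.9, 57.1 and 48.7 CPM at 0 h and 282, 263 and 265 CPM at 0.5 h (log2 fold change 2.32, SE 0.05, adjusted p = 1.32e-31, edgeR). ZFP36L1 and ZFP36, which bind AU-rich elements and promote mRNA decay, rose by 1.70 and 2.02 on the log2 scale. In the list of ZFP36, BTG and IER genes, 18 of 21 were called higher and 1 lower.

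The 250 bases before the start of DUSP1 are shown for the CRE (TGACGTCA, the element bound by CREB and ATF factors), which is in capitals and begins 125 bases before the start. The CRE was found on either strand in 1.85% of all promoters in the RefSeq table and in 3.11% of those of tested genes. The stretch is chr5:172771196-172771445 (GRCh38.p14, - strand).
DUSP1: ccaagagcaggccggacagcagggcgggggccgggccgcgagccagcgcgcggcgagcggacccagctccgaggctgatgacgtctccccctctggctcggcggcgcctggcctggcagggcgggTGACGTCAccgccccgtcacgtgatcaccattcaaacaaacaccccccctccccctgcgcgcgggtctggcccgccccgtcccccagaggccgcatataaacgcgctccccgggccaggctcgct

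Further transcription factors were among the genes that rose. HES1, the repressor downstream of Notch, was at 24.7, 23.3 and 38.1 CPM at 0 h and at 228, 241 and 233 CPM at 0.5 h (log2 fold change 3.05, SE 0.11). NRARP, another Notch target, rose from between 13.6 and 19.9 CPM to between 96.5 and 109 CPM, and JAG1, a Notch ligand, rose by 0.52 on the log2 scale. MYC went from 382, 431 and 418 CPM to between 1057 and 1143 CPM, while MNT, which competes with MYC for MAX, fell by 1.31 on the log2 scale. KLF10, KLF6 and KLF2 rose by 1.55, 1.43 and 1.80, and KLF16 fell by 0.66. Of the 11 KLF genes, 7 were called higher (63.6%) and 3 lower (27.3%). Of 19 clock genes, 8 were called higher (42.1%) and 6 lower (31.6%). Over all genes tested the shares were 17.4% and 16.2%. BHLHE40, a repressor of clock genes, and CRY2 rose by 2.12 and 0.50, and PER1 and NPAS2 fell by 1.20 and 0.73.

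Feedback genes of the TGF-beta and BMP pathways were divided. ID1, ID2 and ID4, direct targets of BMP signalling, rose by 1.78, 1.85 and 1.67 on the log2 scale, as did SMAD7, an inhibitory SMAD, by 1.58. PMEPA1, which restrains TGF-beta signalling, fell by 1.49. The list had 7 of 14 genes called higher (50%) and 5 lower (35.7%). NF-kB genes were divided as well, with 6 of 18 higher (33.3%) and 8 lower (44.4%). Over all genes tested, 17.4% were higher and 16.2% lower. The chemokine CXCL2 rose from between 1.09 and 1.32 CPM to between 7.93 and 10.0 CPM, and IL6 rose by 1.61, whereas RELB was at 25.1, 25.3 and 25.8 CPM at 0 h and at 7.69, 7.65 and 8.31 CPM at 0.5 h. Among the EGFR ligands, HBEGF rose by 0.99, and EPGN, AREG and EREG fell by 2.89, 1.64 and 1.73. EGFR itself was not called (log2 fold change -0.01, adjusted p = 0.845, edgeR).

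Targets of ATF4 and CHOP were called higher in 16 of 29 cases (55.2%) and lower in 3 (10.3%), against 17.4% and 16.2% over all genes tested. Of those called lower, 1 fell at least 2-fold, with a log2 fold change of -1.15. DDIT4, an inhibitor of mTORC1, was at 124, 120 and 143 CPM at 0 h and at 922, 957 and 982 CPM at 0.5 h (log2 fold change 2.89, SE 0.07, adjusted p = 2.36e-19, edgeR). CHAC1, which degrades glutathione, was at 9.96, 10.6 and 9.88 CPM at 0 h and at 40.4, 41.5 and 45.7 CPM at 0.5 h. SESN2, DDIT3 (which encodes CHOP), FGF21 and PPP1R15A rose by 1.51, 1.53, 1.53 and 0.81. The biosynthetic enzymes ASNS and PHGDH and the synthetase GARS were not called, with log2 fold changes of -0.06, 0.01 and 0.04.

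The 250 bases before the start of CHAC1 are shown for the CARE (TGATGNAAN, the composite element of ATF4 and C/EBP), which lies on the opposite strand, is in capitals and begins 210 bases before the start. It was found on either strand in 3.61% of all promoters in the RefSeq table and in 1.75% of those of tested genes. The stretch is chr15:40953221-40953470 (GRCh38.p14, + strand).
CHAC1: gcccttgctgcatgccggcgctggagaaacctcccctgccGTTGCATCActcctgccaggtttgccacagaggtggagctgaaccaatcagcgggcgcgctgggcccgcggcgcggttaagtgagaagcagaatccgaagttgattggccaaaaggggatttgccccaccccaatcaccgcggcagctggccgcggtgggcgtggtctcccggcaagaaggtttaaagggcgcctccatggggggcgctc

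Mitotic genes were mostly higher, with 20 of 21 genes of the G2/M list called higher and 1 lower and a median log2 fold change of 0.532, against -0.001 over all genes tested. TOP2A, the topoisomerase of dividing cells, was at 265, 261 and 293 CPM at 0 h and at 490, 491 and 492 CPM at 0.5 h. CCNF, AURKA and CENPF rose by 1.12, 0.81 and 0.71 on the log2 scale. In the G1/S list, 3 of 22 were called higher (13.6%) and 5 lower (22.7%), near the 17.4% and 16.2% over all genes, and the DNA helicase subunit MCM4 fell by 0.19, a call that was lost with library sizes set by the spike-in totals. In bulk libraries, more cells in a phase and more RNA per cell cannot be told apart.

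Stretches of 250 bases before TOP2A (chr17:40417897-40418146, - strand) and CCNF (chr16:2429197-2429446, + strand), both GRCh38.p14, are shown for the letters shared by mitotic promoters. In capitals are CCAAT boxes (CCAAT) and CHR elements (TTTGAA), each on either strand, and they number 4 and 2 in TOP2A and 4 and 1 in CCNF. Of the 21 genes of the G2/M list, 17 had a promoter in the RefSeq table, and 9 of these held a CHR (52.9%, against 15.2% of all promoters) and 13 a CCAAT box (76.5%, against 34.6%). Among the 11443 tested genes with a promoter (77.6% of those tested), the shares were 10.1% and 36.4%.
TOP2A: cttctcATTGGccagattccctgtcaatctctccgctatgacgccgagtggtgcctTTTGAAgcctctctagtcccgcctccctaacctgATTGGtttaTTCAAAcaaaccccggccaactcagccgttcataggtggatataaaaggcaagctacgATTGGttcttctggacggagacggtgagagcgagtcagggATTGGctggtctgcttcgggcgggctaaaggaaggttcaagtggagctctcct
CCNF: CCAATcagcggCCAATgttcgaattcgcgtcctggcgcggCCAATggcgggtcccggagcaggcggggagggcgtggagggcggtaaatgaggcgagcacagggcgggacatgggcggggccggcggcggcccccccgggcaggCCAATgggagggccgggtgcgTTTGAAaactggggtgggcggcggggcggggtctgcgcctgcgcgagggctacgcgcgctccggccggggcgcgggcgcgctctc

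**Figure D2:**
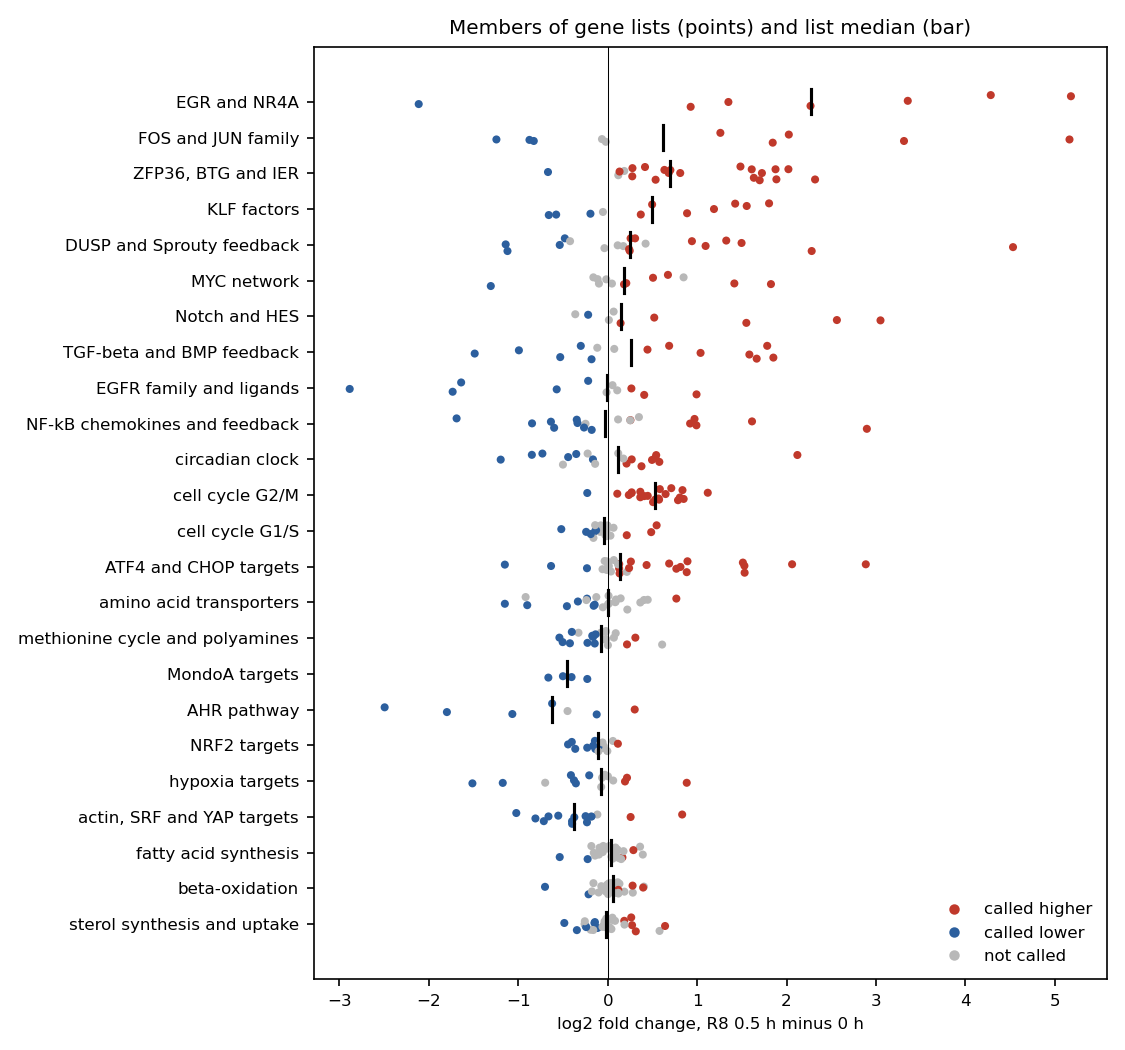
Log2 fold change of R8 at 0.5 h against 0 h (horizontal axis) for the tested members of 24 gene lists (rows), with red points for genes called higher, blue for genes called lower, grey for genes not called, and a bar at each list's median. The G2/M list lies above zero except for 1 gene, the MondoA and AHR lists lie mostly below it, and the lists of fatty acid synthesis and beta-oxidation lie around it.

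The genes with the smallest p among those that fell were of many functions. ST3GAL1, a sialyltransferase, was at 411, 431 and 383 CPM at 0 h and at 138, 128 and 127 CPM at 0.5 h (log2 fold change -1.64, SE 0.05, adjusted p = 8.62e-28, edgeR). The keratin gene KRT80, SH3BP4, the secreted proteins SMOC1 and CRISPLD2, the factor CREB5, the ubiquitin ligase NEDD4L and the acyltransferase GPAT3 fell by between 1.14 and 2.78. EZR, which links actin to the plasma membrane, was at 981, 939 and 836 CPM at 0 h and at 385, 359 and 361 CPM at 0.5 h. Genes of the actin cytoskeleton and targets of SRF and YAP were called lower in 11 of 15 cases (73.3%) and higher in 2 (13.3%). Over all genes tested, 16.2% were lower and 17.4% higher. Among the actin, SRF and YAP genes, FHL2, MYH9, VCL and SRF fell by 1.02, 0.71, 0.66 and 0.55.

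Genes of the aryl hydrocarbon receptor pathway were called lower in 5 of 7 cases and higher in 1. Over all genes tested, 16.2% were lower and 17.4% higher. CYP1A1, a classic target of the receptor, was at 228, 193 and 229 CPM at 0 h and at 35.7, 37.5 and 42.6 CPM at 0.5 h (log2 fold change -2.49, SE 0.07, adjusted p = 5.11e-25, edgeR). CYP1B1, CYP1A2 and TIPARP fell by 1.07, 1.80 and 0.62. AHR had a log2 fold change of -0.12 with overlapping groups (adjusted p = 0.0427), and the call was lost without R8 0.5 h replicate 3 (adjusted p = 0.123), as it was in 3 other fits that left out 1 library. The AHR call was also lost with the spike-in totals (adjusted p = 0.839, edgeR). The 2 groups of CYP1A1 and CYP1B1 did not overlap.

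The 4 MondoA targets that were tested were called lower, with log2 fold changes of -0.50 for HK2, -0.66 for ARRDC2, -0.40 for PFKFB3 and -0.23 for ARRDC3. MondoA is a glucose-sensing factor. The PFKFB3 call was lost with the spike-in totals, and the ARRDC3 call was lost there and without R8 0 h replicate 1 (adjusted p = 0.139), R8 0 h replicate 3 (0.0804) or R8 0.5 h replicate 3 (0.188). Of the 16 NRF2 genes, which respond to oxidants, 8 were called lower (50%) and 1 higher (6.25%), against 16.2% and 17.4% over all genes tested. NFE2L2, which encodes NRF2, and TXNRD1 fell by 0.40 and 0.36, the latter not called with the spike-in totals.

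The methionine cycle and polyamine genes were called lower in 9 of 21 cases (42.9%) and higher in 2 (9.52%), against 16.2% and 17.4% over all genes tested. MAT2A, the enzyme that makes S-adenosylmethionine, was at 411, 438 and 391 CPM at 0 h and at 315, 278 and 280 CPM at 0.5 h (log2 fold change -0.50, SE 0.05, adjusted p = 2.83e-11, edgeR). At 2 h its mean was 768 CPM, above that at 0 h by 0.89 on the log2 scale. AMD1 and ODC1, which commit S-adenosylmethionine and ornithine to polyamine synthesis, fell by 0.40 and 0.54. MTR, methionine synthase, was at 57.4, 59.5 and 62.8 CPM and then at 54.8, 54.6 and 52.7 CPM, a log2 fold change of -0.14 (adjusted p = 0.0457) that was not called in 5 of the 6 fits that left out 1 library, with adjusted p between 0.063 and 0.173. CBS, which takes homocysteine to cystathionine, had a log2 fold change of -0.42 with overlapping groups, and its call was lost without R8 0 h replicate 1 (adjusted p = 0.0539) or R8 0.5 h replicate 1 (0.0676). With the spike-in totals, neither MTR nor CBS was called (adjusted p = 0.753 and 0.0905, edgeR). AHCY was not called (log2 fold change -0.08).

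Among the amino acid transporters, 7 of 23 were called lower (30.4%) and 1 higher (4.35%), against 16.2% and 17.4% over all genes tested. SLC7A5, the light chain of the large neutral amino acid transporter, which also carries methionine, was at 2499, 2659 and 2211 CPM at 0 h and at 1115, 1076 and 1129 CPM at 0.5 h. Its partner SLC3A2 and the cationic transporter SLC7A1 fell by 0.23 and 0.46, and the SLC3A2 call was lost with the spike-in totals. SLC38A2 was the one that rose, from between 357 and 381 CPM to between 616 and 661 CPM.

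In fatty acid synthesis, 2 of 29 were called higher and 2 lower, and in beta-oxidation 3 of 32 were higher and 2 lower, against 17.4% higher and 16.2% lower over all genes. FASN, fatty acid synthase, was at 1842, 1944 and 1779 CPM at 0 h and at 1852, 1870 and 1852 CPM at 0.5 h, with a log2 fold change of 0.00 (SE 0.07). ELOVL6, ACLY, CRAT, ACADM and ACADS were not called, with log2 fold changes between -0.02 and 0.28. ACLY passed the threshold without R8 0 h replicate 2 (adjusted p = 0.0259), as did CRAT (0.0147). The members called included CPT1A (-0.21), ACSL3 (-0.22) and SCD (0.16), and these 3 calls were lost with the spike-in totals.

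Called genes with a mean of at least 1 CPM over both groups, and groups that did not overlap, were ranked by size of change. A gene can pass this rule through 1 group alone. The largest increases were those of RASD1, EGR2, FOS, RGL2, DUSP1 and EGR1. RASD1 and RGL2 were below 1 CPM in every 0 h library and passed through 0.5 h only. RASD1, a small GTPase, had 2 counts over the 3 libraries at 0 h and 164 at 0.5 h. The ratio was 86.0 after scaling, with a 95% counting interval of 23.4 to 716. The interval leaves out the spread between libraries, and the gene was picked for its large change. RGL2 was uneven, at 1.30, 3.40 and 9.77 CPM at 0.5 h, and its call was lost without R8 0 h replicate 1 or R8 0.5 h replicate 3 (adjusted p = 0.0575 and 0.0629). The largest decreases by the same rule were those of CDH5, MAPK4, EVA1C, RAB7B, PHLDB2 and NPTX1. CDH5, MAPK4 and NPTX1 were below 1 CPM in every 0.5 h library and passed through 0 h only. EVA1C was at 0.574, 1.06 and 1.19 CPM at 0.5 h. PHLDB2, which anchors microtubules at the cell cortex, was at 499, 491 and 433 CPM at 0 h and at 45.9, 44.4 and 42.7 CPM at 0.5 h (log2 fold change -3.42, SE 0.08). CDH5, an endothelial marker, was at or below 2.40 CPM throughout. KDR, another, went from between 41.0 and 45.6 CPM to between 16.8 and 27.1 CPM, and the summed endothelial markers from between 46.0 and 50.4 CPM to between 19.4 and 29.1 CPM, almost all of it KDR. Of the basal markers, KRT17 fell from between 632 and 831 CPM to between 283 and 338 CPM.

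The levels at 2 h lay closer to those at 0 h for most of the genes named above. FOS, EGR1 and DUSP1 had means of 9.91, 28.5 and 43.0 CPM at 2 h. The 178 genes that were at least 2-fold higher at 0.5 h had a median log2 fold change against 0 h of 1.372 at 0.5 h, 0.151 at 2 h and 0.283 at 12 h. NRARP was an exception, with a log2 fold change of 2.29 at 2 h. The 350 genes that were at least 2-fold lower had medians of -1.436, -0.004 and -1.206 at the same times. ST3GAL1 had a mean of 401 CPM at 2 h and 113 CPM at 12 h, and SLC7A5 of 2487 and 992 CPM. These medians share the 0 h libraries, and the genes were selected on the 0.5 h values, so no test is given. Against 0 h, 639 genes were called at 2 h (4.34%) and 9089 at 12 h (61.7%). Between 0.5 h and 2 h, 5194 genes were called (35.2%), 48.2% of them higher at 2 h, or 35.5% with the spike-in totals.

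**Figure D3:**
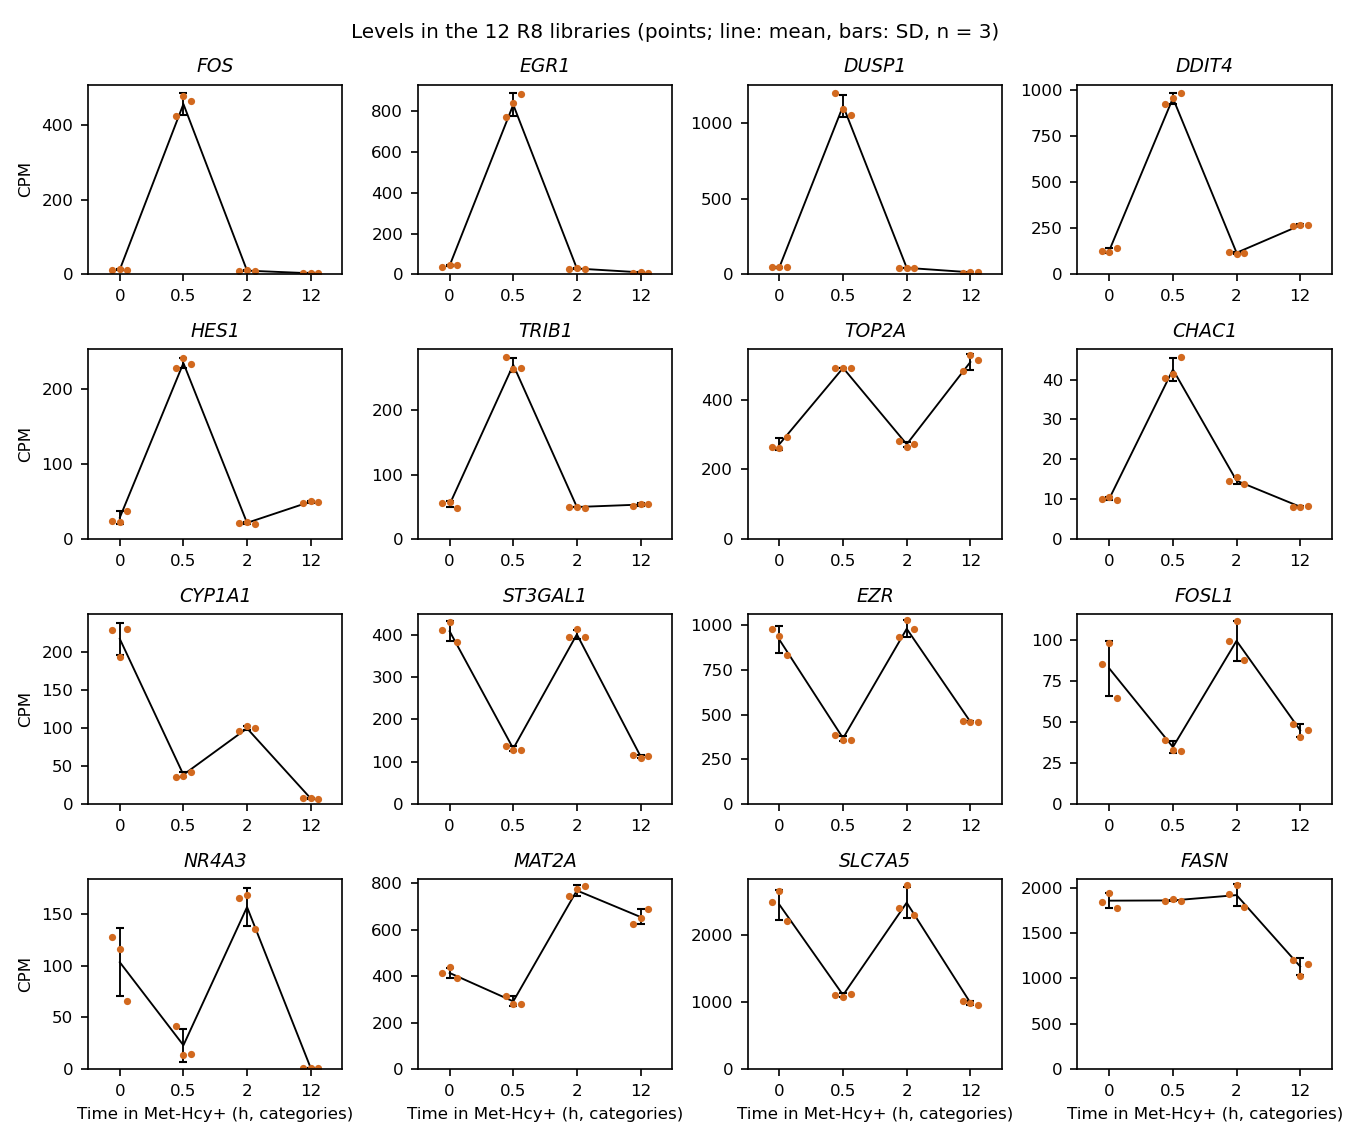
Level in CPM (vertical axes, from 0) of 16 genes in the 12 R8 libraries at 0, 0.5, 2 and 12 h in Met-Hcy+ medium (horizontal axes, drawn as categories), with points for libraries, a line through the means and bars of 1 SD (n = 3). FOS, EGR1 and DUSP1 are highest at 0.5 h, ST3GAL1, EZR and SLC7A5 are low at 0.5 h and at 12 h, and FASN has means of 1855 and 1858 CPM at 0 h and 0.5 h and 1130 CPM at 12 h.

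**Figure D4:**
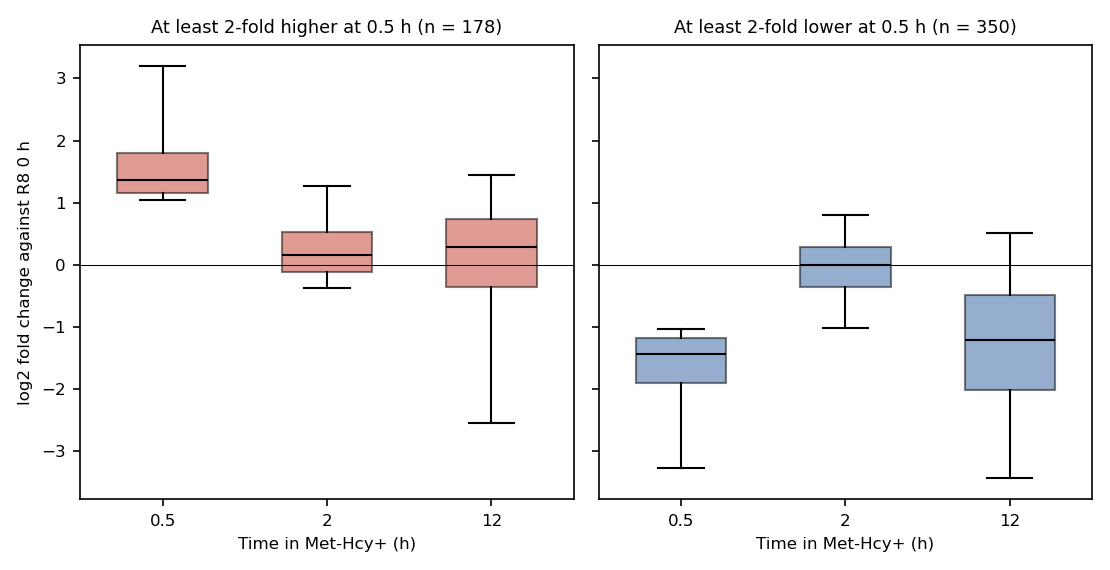
Log2 fold change against R8 at 0 h (vertical axis) at 0.5, 2 and 12 h (horizontal axis) for the 178 genes at least 2-fold higher (left) and the 350 at least 2-fold lower (right) at 0.5 h, with boxes from the lower to the upper quartile, a line at the median and whiskers from the 5th to the 95th percentile. The medians at 2 h are 0.151 and -0.004.

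The genes that rose at least 2-fold had a median span in the GENCODE annotation of 16.1 kb, against 27.5 kb for the genes that fell at least 2-fold and 32.7 kb for all genes tested, and their longest transcript had a median of 4 exons, against 6 and 8. Between 91.8% and 92.7% of each set was matched by symbol.

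MB468 cells, which do not share libraries with R8, were compared at the same time. In MB468, 5021 genes were called (34.1%), 2396 higher and 2625 lower, against 459 and 2828 with the spike-in totals, and 3453 were called in both lines, which is 69.6% of the R8 calls and 68.8% of the MB468 calls. The direction was shared for 3423 of them and differed for 30. Across the 14739 genes, which are not independent replicates, the log2 fold changes of the lines were correlated at r = 0.629 (Pearson) and rho = 0.648 (Spearman). FOS rose by 5.27 in MB468, DUSP1 by 4.37 and DDIT4 by 2.83, close to the R8 values. The test of the difference between the lines called 443 genes (3.01%), 218 with R8 above MB468 (1.48%) and 225 with R8 below (1.53%). Of the 1507 genes called in R8 alone, 112 had a called difference.

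The differences in which R8 lay below MB468 included stress and hypoxia genes. NDRG1 was at 108, 105 and 103 CPM in R8 at 0 h and at 38.4, 35.9 and 36.2 CPM at 0.5 h, a fall of 1.51 on the log2 scale against one of 0.30 in MB468 (adjusted p of the difference = 8.72e-14, edgeR). ADM, encoding adrenomedullin, fell by 1.17 in R8 and had a log2 fold change of -0.05 in MB468. Its level at 0 h differed between the lines, with means of 60.7 CPM in R8 and 21.3 CPM in MB468. At 0.5 h the ADM means were 26.9 and 20.9 CPM. SESN2 and CHAC1 rose less in R8, by 1.51 against 2.83 and by 2.06 against 3.45. Both started higher in R8. SESN2 was at 15.7 to 16.6 CPM in R8 and 7.72 to 9.07 CPM in MB468 at 0 h. CHAC1 had means of 10.2 and 5.46 CPM at 0 h and of 42.5 and 60.2 CPM at 0.5 h. The immediate early genes EGR1, EGR2, EGR3, EGR4, NR4A1, JUN and JUNB also rose less in R8 than in MB468, with differences of log2 fold changes between -1.32 and -0.42. With the spike-in totals, the difference was still called for EGR3 (adjusted p = 0.0229) but not for the other 6 (adjusted p between 0.07 and 0.504). LMO7, FOXC1 and SEMA6A had differences of -0.85, -0.93 and -1.69, and those of LMO7 and FOXC1 were not called with the spike-in totals (adjusted p = 0.126 and 0.0588).

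In the list of TGF-beta and BMP feedback genes, 3 of 14 had a called difference with R8 above MB468 and 2 with R8 below. Over all genes tested the shares were 1.48% and 1.53%. PMEPA1 was among those with R8 below (-0.39, not called with the spike-in totals). SMAD3 was at 32.4, 36.1 and 42.5 CPM in R8 at 0 h and at 32.1, 32.2 and 29.8 CPM at 0.5 h, while in MB468 it fell by 1.30 on the log2 scale (difference 1.07, adjusted p = 1.03e-08, edgeR). MB468 started higher, at 63.3, 73.6 and 65.0 CPM at 0 h, and was at 27.9, 26.1 and 28.4 CPM at 0.5 h. The small fall of SMAD3 in R8, of 0.23, was not called without R8 0 h replicate 3 (adjusted p = 0.25) or R8 0.5 h replicate 3 (0.0941). Nor was this fall called with the spike-in totals (adjusted p = 0.467, edgeR). SMAD7 and TGIF1 rose by 1.58 and 1.04 in R8 against 0.54 and 0.46 in MB468. NUAK2, a kinase of the AMPK family, rose by 0.72 in R8 and fell by 0.72 in MB468. OSMR, the oncostatin M receptor, and ZFP36L2 had differences of 0.57 and 0.62, and the rise of OSMR in R8 was not called with the spike-in totals. HES1 rose more in R8 by 0.93, and CYP1A1 fell less, with a difference of 1.08. With library sizes set by the spike-in totals, the median difference over all genes moved from 0.0125 to 0.256, and 101 differences were called, 80 above and 21 below.

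**Figure D5:**
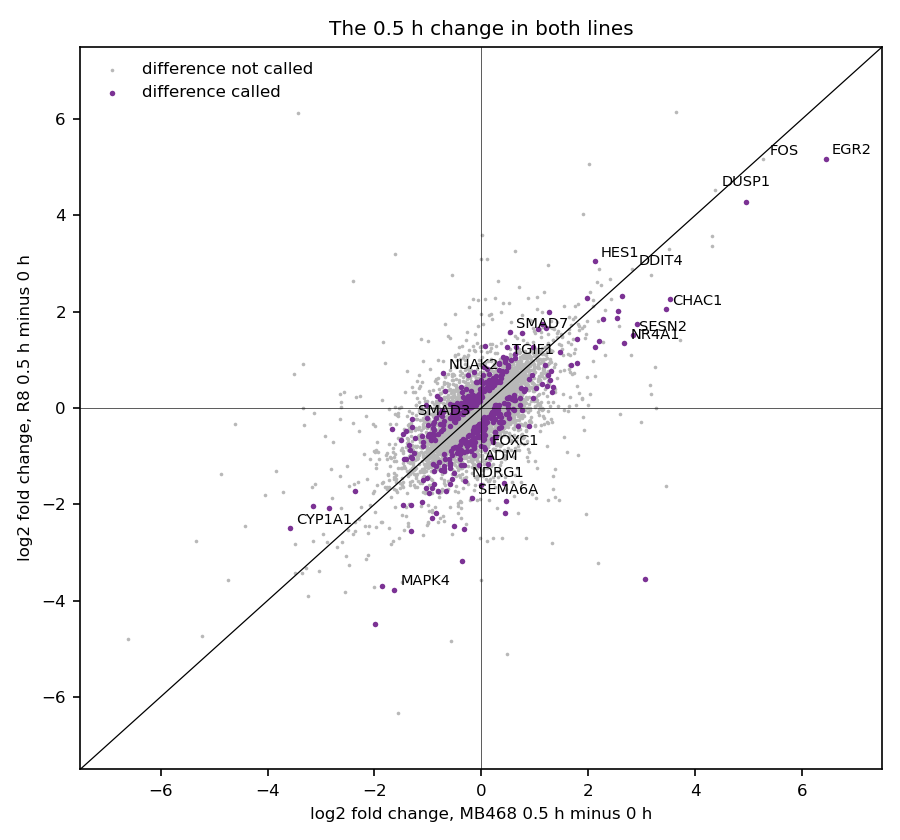
Log2 fold change at 0.5 h in R8 (vertical axis) against MB468 (horizontal axis) for the 14739 genes, with the 443 genes whose difference between the lines was called in purple and the diagonal of equal change. FOS, DUSP1 and DDIT4 lie near the diagonal, NUAK2 and SMAD7 above it and SEMA6A, NDRG1 and ADM below it.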

How the data were processed

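RNA was measured as poly(A) libraries with ERCC spike-in RNA. The deposited raw counts, made by the authors with HISAT2 2.1.0 against GRCh38/hg38 and featureCounts (Subread 1.5.3), were used, as counts per gene. The annotation and strand setting are not given in the sources used here, and the kit does not mark strand. The deposited normalized table and the table of the authors' own comparisons (fold changes and p-values) were not used. The 92 spike-ins were left out, and 4 repeated symbols with identical counts were counted once, of 26645 gene entries.

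All 24 libraries were fitted with 1 mean for each of 8 groups by edgeR 4.0.16's quasi-likelihood test (TMM scaling, filterByExpr with a minimum count of 10, robust), leaving 14739 genes. Calls were made at an adjusted p (Benjamini-Hochberg) below 0.05. CPM use TMM library sizes. The smallest library had 11745047 counts and the largest 36495328, and the precision of low genes is limited accordingly. Named genes were, for each list, up to 6 called members with the smallest p and up to 2 not called with the highest level, then the 12 smallest p and 6 largest changes in each direction, the 6 largest line differences by p in each direction, the FOS, JUN, EGR and NR4A genes, and genes of the study's subject. Members and lists were chosen with earlier results of these data known. No 2 libraries of a group were identical or within sampling noise. In simulated data for R8 at 0.5 h against 0 h (14266 genes, 200 changed), 96% of 2-fold increases and 86% of 2-fold decreases were recovered. There were 11 false calls among 14066 unchanged genes. Apart from the changed genes, all groups had the same means, and far fewer genes changed than were called in the real libraries. These rates therefore need not hold for the real libraries.

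Alternatives were DESeq2 1.42.0 size factors and test, spike-in scaling, filters, thinning, a spike-in factor as covariate, a stricter threshold, subsets of libraries, a replicate block and leaving out each library. Some named genes and markers are not reported here.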

Additional observations from a re-analysis of the deposited data

Results flagged for a closer look

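Of the 138 genes considered for the text, 45 had a 0.5 h response whose difference between R8 and MB468 was itself called (edgeR quasi-likelihood test of the interaction, Benjamini-Hochberg adjustment over all 14739 genes). Over all genes tested, 443 differences were called (3.01%). The 138 genes were partly chosen by the p of this same difference and of the R8 change. The count of 45 follows in part from that choice. The values below are the log2 fold change in R8 minus that in MB468, with 3 libraries in each group. They compare changes, not levels, and the lines also differed in level at 0 h for genes such as ADM and SMAD3. With library sizes set by the spike-in totals, 8 of the 29 with R8 below stayed called (MAPK4, EVA1C, SEMA6A, CHAC1, SESN2, EGR3, NDRG1 and ADM), as did 11 of the 16 with R8 above (not VCL, TXNRD1, DUSP5, SRF and CYP1B1), and none changed sign.

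The response lay lower in R8 for MAPK4 (-2.14), EVA1C (-1.82), SEMA6A (-1.69), CHAC1 (-1.39), NR4A1 (-1.32), SESN2 (-1.32), EGR3 (-1.27), EGR2 (-1.26), NDRG1 (-1.21), ADM (-1.13), FOXC1 (-0.93), EGR4 (-0.87), JUN (-0.86), LMO7 (-0.85), EGR1 (-0.67), KRT17 (-0.61), SLC7A5 (-0.56), HERPUD1 (-0.54), ZFP36 (-0.53), ARRDC3 (-0.48), EZR (-0.44), JUNB (-0.42), HK2 (-0.42), PMEPA1 (-0.39), KLF6 (-0.37), TRIB1 (-0.32), AHR (-0.32), VEGFA (-0.32) and PFKFB3 (-0.28).

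The response lay higher in R8 for NUAK2 (1.44), CYP1A1 (1.08), SMAD3 (1.07), SMAD7 (1.04), HES1 (0.93), ZFP36L2 (0.62), NFKBIA (0.59), TGIF1 (0.58), OSMR (0.57), HBEGF (0.55), CCNF (0.50), CYP1B1 (0.35), SRF (0.32), DUSP5 (0.31), TXNRD1 (0.23) and VCL (0.21).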

How the results depend on the processing

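With library sizes set by the spike-in totals, 2022 genes were called in R8 at 0.5 h (1193 higher, 829 lower), 101 for the difference between the lines (80 above, 21 below), 3287 in MB468 (459 higher, 2828 lower) and 2379 between R8 at 2 h and 0.5 h (844 higher, 1535 lower), and the median over all genes moved to 0.0422 in R8, -0.204 in MB468 and 0.256 for the difference. At least 10 counts in every library left 290 genes changed by 2-fold or more, 122 higher and 168 lower. Thinning to the smallest library left 250 called differences and an adjusted p under 0.01 left 237. The cause was not tested for the spike-in totals; the other settings test fewer genes, fewer counts or a stricter threshold.

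Leaving out 1 library gave between 4183 and 4519 calls in R8, 499 to 542 changed by 2-fold or more, 4148 to 4882 in MB468, 4291 to 4830 between 2 h and 0.5 h, and 283 (without R8 0 h replicate 1) to 451 called differences. The DESeq2 test called 4892 genes in R8, 4678 of them among the 4960. With the replicate block, 4871 genes were called in R8, 523 by 2-fold or more, and 425 differences. Same-numbered R8 libraries at 0 h and 0.5 h had deviations correlated at 0.119, -0.0845 and -0.0939, and differently numbered ones at between -0.12 and 0.178. With 3 libraries in each group, these values cannot show whether the numbers pair the libraries. The block ended the call of MTR among the named genes (adjusted p = 0.0526, edgeR). Leaving out MB468 2 h replicate 2, chosen after seeing the data, gave 4987 calls in R8. None of the named genes called in R8 changed sign in an alternative that could give it a value, and 7 of the 13 not called did in at least 1. Line differences were recomputed under every alternative for 12 genes only, and with the spike-in totals for 45. Low counts limit genes such as RASD1, CDH5 and NPTX1.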

Other observations

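Further lists are given with the shares over all genes tested, 17.4% called higher and 16.2% lower. Of 15 cytosolic heat shock genes 5 were called higher and 1 lower, of 20 endoplasmic reticulum chaperone genes 5 were higher and 2 lower, and of 13 p53 targets 5 were higher and 2 lower. Of 17 host genes of small nucleolar RNAs 1 was higher and 6 lower. The interferon-stimulated genes (2 of 15 higher, 3 lower) and sterol genes (5 of 31 higher, 7 lower) were near the shares over all genes. Among the former, OASL was at 19.2, 17.0 and 13.7 CPM at 0 h and at 2.26, 1.86 and 1.84 CPM at 0.5 h, a log2 fold change of -3.06 with groups that did not overlap. The medians of these lists lay between -0.132 and 0.105 on the log2 scale, against -0.001 over all genes tested.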
